A study of Mus musculus with 15 samples.

Results

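Genes were sought whose signal in Pdx1-deficient mouse islet cells lay outside the span between normal alpha and normal beta cells, above both or below both. Each gene was given a contrast, the mean of the 5 Pdx1-deficient arrays minus the average of the alpha mean and the beta mean (the control midpoint), and its Pdx1-deficient mean was placed above, below or between the control means. Of 19938 genes, 12316 had a Pdx1-deficient mean outside both control means, 8000 above and 4316 below. A gene was counted as called only if its contrast also passed an adjusted p of 0.05. The whole comparison was then repeated over 13 arrays, without the arrays labelled Pdx1-deficient 1 and alpha 2.

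Pdx1 is a homeodomain transcription factor needed for pancreas formation and, in the adult, for the insulin program of beta cells. Alpha cells of the same islets make glucagon and carry little of it. A beta cell that lost Pdx1 might keep its profile, take on parts of the alpha profile, or express genes at levels that neither normal cell type has, and the last of these is what the contrast with both controls describes. Beta cells are professional secretory cells, so their transcripts are rich in genes for protein synthesis, for folding in the endoplasmic reticulum, for dense-core granules and for mitochondrial metabolism.

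The 15 Affymetrix Mouse Gene ST arrays held 5 samples titled as islet beta cells, 5 as islet alpha cells and 5 as Pdx1-deficient cells, all of a mixed B6 and BALB/C background. The control samples were YFP+ cells sorted from islets of mice aged 2 months. The beta samples are given the genotype glucagon-Cre; RosaYFP and the alpha samples RIP-CreER; Pdx1fl/+, RosaYFP, which pairs each title with the driver usually active in the other cell type, and the groups used here follow the titles. Under those labels, taken as written, the alpha controls carry 1 floxed Pdx1 allele and an inducible Cre of their own. The mean of a list of beta-cell identity genes was 9.43 to 9.64 in beta arrays and 8.32 to 8.90 in alpha arrays. That of alpha-cell identity genes was 7.65 to 7.93 and 8.26 to 9.53, so both lists followed the titles. Whether the genotype labels were exchanged, which would place the floxed allele in the beta controls, was not tested. The remaining group has the genotype Pdx1-deficient (PKO), was sampled 5 days after tamoxifen, and is called reprogrammed cells in the labels. The driver, the reporter, the age and the sorting of this group, the deleted part of Pdx1 and any tamoxifen given to controls are not stated in the sources used here. Whether any 2 samples of a group shared an animal is unstated too, and the p-values below therefore cover only sample-to-sample spread, part or all of which may be technical. Each labelling reaction started from 500 ng of RNA, array medians lay between 5.88 and 6.05 on the deposited log scale, and 5 arrays a group limit the precision.

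Pdx1 itself did not separate all Pdx1-deficient arrays from controls. It read 8.85, 9.33, 9.26, 9.02 and 9.26 (log2 signal) in the beta arrays and 8.15, 7.98, 8.21, 7.70 and 7.27 in the alpha arrays. The Pdx1-deficient arrays read 9.12, 7.83, 7.68, 6.53 and 7.59. Thus 4 of the 5 lay near or below the alpha level, while the array labelled Pdx1-deficient 1 sat within the beta range. The Pdx1-deficient mean differed from beta by -1.39 (two-sided exact permutation test, p = 0.0238) and from alpha by -0.11 (exact permutation p = 0.81). Without the arrays labelled Pdx1-deficient 1 and alpha 2 these differences were -1.74 (exact permutation p = 0.0159) and -0.42 (exact permutation p = 0.314). The omission removed the 1 Pdx1-deficient array within the beta range and was decided with its Pdx1 value known. Neither of these p-values is therefore independent evidence. The hormone genes Ins2 and Gcg did not mark the groups, unlike the identity lists, which separated the control groups. Ins2, 1 of the insulin genes, had 13-array means of 11.90 in beta, 12.03 in alpha and 12.06 in Pdx1-deficient arrays. Gcg, the glucagon gene, had means of 12.35, 12.81 and 12.46. Both lay near the highest deposited value, 13.45, and whether a ceiling narrowed their differences was not tested. In RNA taken from many cells at once, fewer cells of a type and less RNA per cell cannot be told apart.

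Over all 15 arrays no gene stood outside both controls with an adjusted p under the threshold. The contrast with the control midpoint gave 0 calls among 19938 genes (limma, lowest adjusted p = 0.356), a percentage called of 0, although 2124 genes had an unadjusted p under 0.05, 1056 of them with means above both controls (5.3% of all genes) and 974 below (4.89%). A mean outside both controls is common by itself: 61.8% of genes had one, 40.1% above and 21.6% below. Most of the excess above came from dim genes. Among the 9969 dimmer genes 55.6% lay above and 10.2% below, and among the 9969 brighter genes 24.7% lay above and 33.1% below. The share of outside genes that lay above was 65.0% on the deposited values, 53.7% after each array's median was subtracted and 56.0% after quantile normalization. A stricter test asked whether the Pdx1-deficient mean differed from each control group in the same direction, taking the larger of both pairwise p-values. It gave 0 genes after adjustment, and 299 genes (1.5%) at an unadjusted p under 0.05, of which 135 were above and 164 below.

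In 11 genes (0.0552% of those tested) all 5 Pdx1-deficient arrays lay beyond all 10 control arrays. How many genes would do so by chance was not computed, so the count is not read as more than chance. The values of these genes are given without a call, and the unadjusted limma contrast p of the 11 ran up to 0.102 (Cpne9). The 5 genes below were Fam3c, Rplp1, Mtfr1l, Tacc1 and Abr, and their means lay over the array medians. Fam3c, which encodes a secreted cytokine-like protein, read 9.30, 9.10, 8.86, 9.08 and 8.74 in beta arrays and 9.31, 8.88, 9.52, 9.30 and 9.34 in alpha arrays. It read 8.56, 8.10, 8.40, 8.48 and 6.99 in Pdx1-deficient arrays. The array labelled Pdx1-deficient 5 was far lower than the other 4, which read 8.10 to 8.56 with the lowest control at 8.74, and the mean was -0.91 from the nearer control mean.

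Rplp1, a protein of the large ribosomal subunit's stalk, read 11.11, 11.01, 10.69, 9.89 and 10.70 in Pdx1-deficient arrays against 11.11 to 11.53 in beta and 11.14 to 11.28 in alpha arrays. Its first Pdx1-deficient value touched the lowest control at this rounding, and the fourth lay more than 1 unit under every control. Another cluster of this gene was measured, and ribosomal protein genes have many near-identical pseudogene copies, so its signal may hold several sources. Mtfr1l, a relative of mitochondrial fission regulators, read 7.60, 7.59, 7.29, 6.43 and 7.57 against controls of 7.61 to 8.39. Again the fourth array was lowest, the third was next and the other 3 lay close under the controls. Tacc1, a centrosome and microtubule protein, read 8.07, 8.23, 8.47, 7.81 and 8.03 against controls of 8.47 to 8.87, and Abr read 8.10, 8.15, 8.37, 8.23 and 8.32 against 8.47 to 8.79. In Abr the 5 arrays lay close together, and the one labelled Pdx1-deficient 1 was the lowest of all.

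The 6 genes above both controls were Kif4, L3mbtl1, Tnf, Olfr971, Eda and Cpne9, with mean gaps of only 0.06 to 0.26 over the nearer control. Kif4, a mitotic kinesin, read 4.30, 4.08, 4.04, 4.08 and 4.10 against controls of 3.54 to 3.95. Tnf, the inflammatory cytokine, read 5.93, 5.84, 5.84, 5.82 and 5.79 against controls of 5.36 to 5.79. Tnf lay at or under the median signal of an array, and Kif4 under the lower quartile of every array (4.55 to 4.80). L3mbtl1, a chromatin reader, read 6.40, 6.41, 6.48, 6.66 and 6.65 against 6.04 to 6.37. The olfactory receptor gene Olfr971 lay between 3.62 and 3.83 against 3.41 to 3.62, also under every lower quartile.

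**Figure D1:**
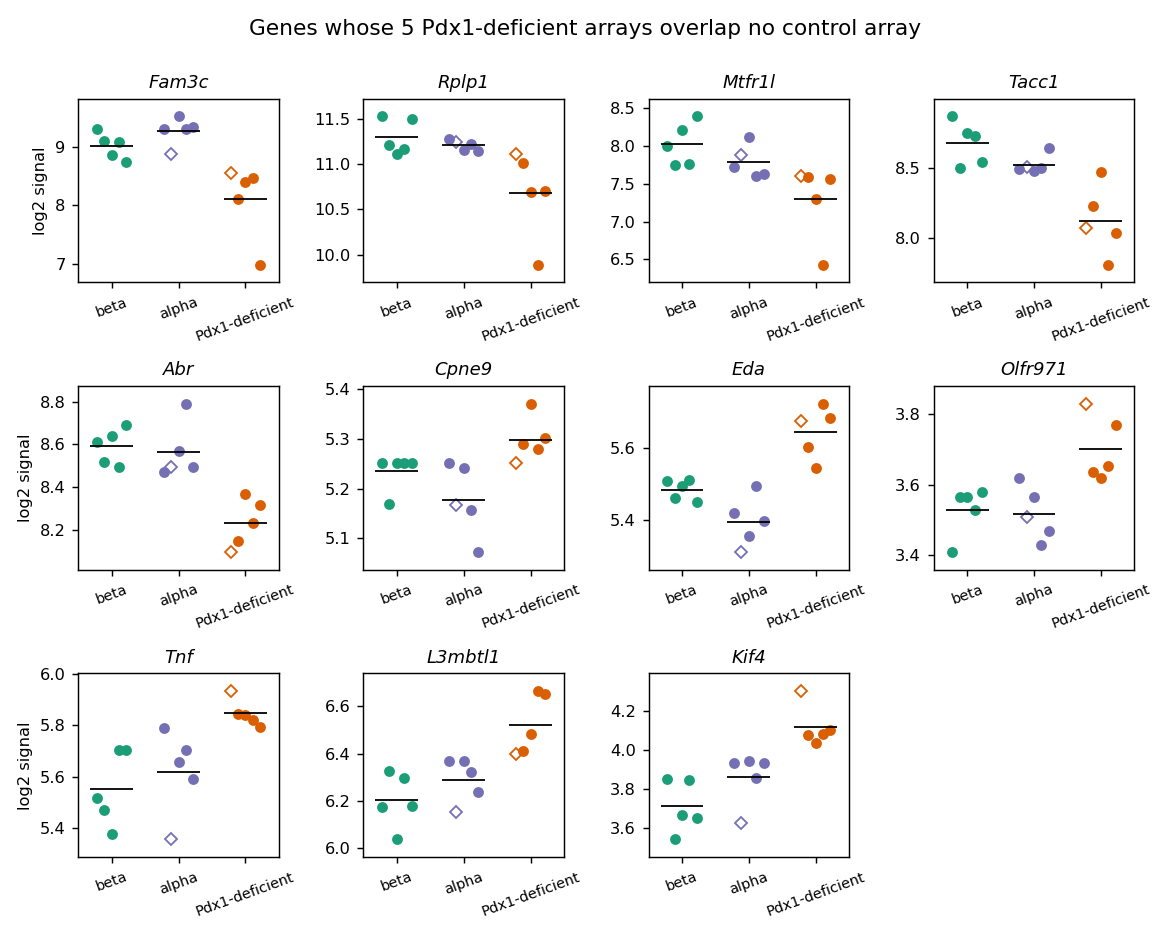
Log2 signal of the 11 genes whose 5 Pdx1-deficient arrays overlapped no control array, 1 panel a gene and 1 point an array, with lines at the means of 5 arrays. Open diamonds are the arrays labelled alpha 2 and Pdx1-deficient 1. In Fam3c, below the controls, the Pdx1-deficient arrays ran from 6.99 to 8.56, and the 6 genes above had mean gaps of 0.06 to 0.26.

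The arrays labelled Pdx1-deficient 1 and alpha 2 differed from their groups in some values, and leaving both out was decided with these values known. The first had Pdx1 at the beta level, and over all genes its mean correlation was 0.976 with beta arrays against 0.970 with alpha and 0.970 with other Pdx1-deficient arrays. The array labelled alpha 2 correlated at 0.974 with beta arrays, 0.974 with Pdx1-deficient arrays and 0.963 with the other alpha arrays. The alpha-cell identity list had a mean of 8.26 in alpha 2, 9.30 to 9.53 in the other alpha arrays and 8.07 to 8.34 in Pdx1-deficient 2 to 5. It was 8.65 in Pdx1-deficient 1, over those and over beta (7.65 to 7.93). The beta-cell identity list had 9.71 in Pdx1-deficient 1, 8.39 to 8.94 in Pdx1-deficient 2 to 5 and 9.43 to 9.64 in beta. In alpha 2 it was 8.85, within the alpha range. No label or table column explains these values, and what these samples are was not tested. Over the 13 remaining arrays (5 beta, 4 alpha, 4 Pdx1-deficient), 60.5% of genes had a mean outside both controls, and at an unadjusted p under 0.05 in the contrast 5.5% were above and 5.79% below. After adjustment 62 genes passed an adjusted p of 0.05 in the limma contrast (0.311%). Of these, 52 (0.261%) had a Pdx1-deficient mean outside both controls, 22 above (0.11%) and 30 below (0.15%). These calls rest on both omissions, since leaving out the array labelled Pdx1-deficient 1 alone gave 11 calls and leaving out alpha 2 alone gave 1. They also rest on single remaining arrays: 19 genes were called without Pdx1-deficient 4, 15 without Pdx1-deficient 5 and 101 without Pdx1-deficient 3.

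A call against the midpoint does not by itself place a gene beyond the nearer control. Of the 52 genes, 38 differed from each control group at an unadjusted p under 0.05 (2.23% of all genes did), 14 did not (Slc4a10, Nectin3, H2bc4, Peg10, Ptprk, Sgce, Tspan12, Cars, Matn2, Oat, Rcn3, Ppp1r1a and 2 genes with Rik symbols), and 0 did after adjustment over all genes (limma, lowest adjusted p = 0.268, Cd9). In 25 of the 52 the 4 Pdx1-deficient arrays overlapped none of the 9 control arrays, which held for 0.577% of all genes. The 22 genes above exceeded the nearer control mean by 0.01 to 1.93 (median 0.51), and the 30 below fell short of it by 0.04 to 1.20 (median 0.58). With all 15 arrays every one of the 52 kept the sign of its contrast, and 21 of the 22 and 23 of the 30 still had means outside both controls.

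The 52 genes were called with the arrays labelled Pdx1-deficient 1 and alpha 2 left out, a choice made with their values known. The values of both in these genes are therefore a description and no independent evidence on either array. The array labelled Pdx1-deficient 1 lay beyond the nearer control mean on the called side in 10 genes (App, Cdo1, Fam3c, Ing2, Pcdhb12, Pde3a, Rcn1, Robo1, Snord61 and Utp15) and within the range of the 9 control arrays in 43. Its median distance past the nearer control mean was -0.37, against 0.55, 0.39, 0.61 and 0.65 in the other 4 Pdx1-deficient arrays. The array labelled alpha 2 lay beyond that mean on the called side in 42 of the 52, and at or past the nearest of the 4 Pdx1-deficient arrays in 27, with a median distance of 0.27. The control arrays in the fit lay past that mean in 11 to 17 genes each.

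**Figure D2:**
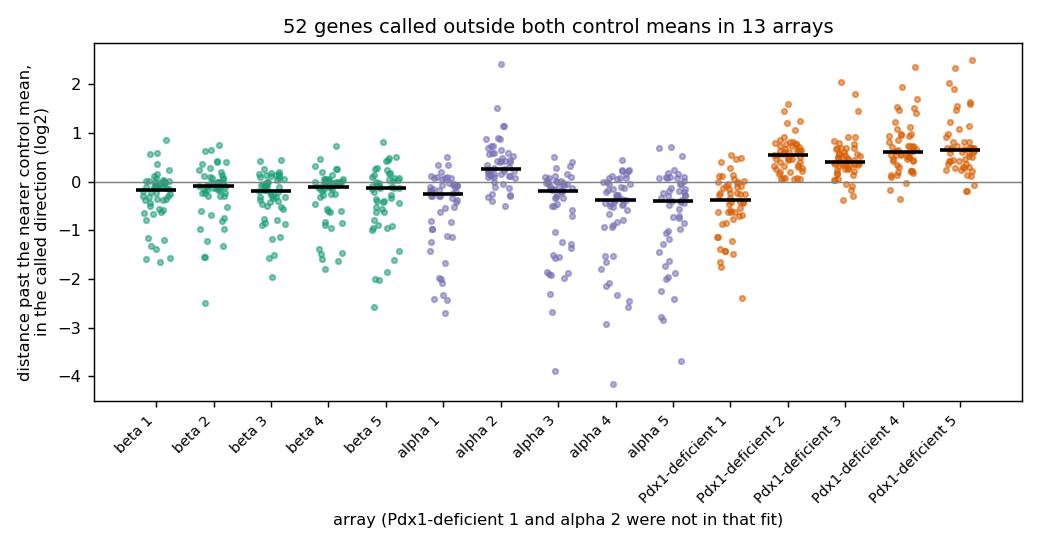
Distance of each array past the nearer control mean (log2, positive in the called direction) for the 52 genes called over 13 arrays, 1 point a gene, with bars at the medians. The 4 Pdx1-deficient arrays in the fit had medians of 0.39 to 0.65, a distance the choice of genes fixes. The omitted array labelled Pdx1-deficient 1 had a median of -0.37 and the omitted alpha 2 a median of 0.27.

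Genes called above both controls in the 13 arrays included surface proteins, enzymes of signalling and transcription regulators. Cd9, a tetraspanin of the cell surface, had the widest gap. It read 6.71, 5.85, 6.05, 5.96 and 6.89 in beta arrays and 6.93, 6.60, 6.41 and 7.34 in alpha arrays 1, 3, 4 and 5. In Pdx1-deficient arrays 2 to 5 it read 8.03, 8.62, 9.17 and 9.15. No control in the fit reached the lowest of these, and the mean was 3.80-fold over the nearer control mean if the deposited scale is base 2, as taken here from its range (gap 1.93, contrast 2.19, SE 0.26, limma adjusted p = 0.00324). Of the omitted arrays, Pdx1-deficient 1 read 6.37, among the controls, and alpha 2 read 7.97, next to the Pdx1-deficient arrays.

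Folr1, the folate receptor alpha, read 9.56, 9.07, 8.97 and 9.12 in the Pdx1-deficient arrays of the fit against 7.71 to 8.75 in beta and 7.36 to 7.98 in alpha arrays. The groups did not overlap, and the gap was 0.87 (limma adjusted p = 0.0264), but the array labelled Pdx1-deficient 1 read 6.82, the lowest value of all 15 arrays, and alpha 2 read 9.19. In Robo1, the Slit receptor, both omitted arrays sat at the Pdx1-deficient level. It read 8.32 in Pdx1-deficient 1, 8.13 to 8.62 in the other Pdx1-deficient arrays and 8.19 in alpha 2, against 7.79 to 8.24 in beta and 6.67 to 7.42 in the other alpha arrays. Its range overlapped beta, with a gap of 0.39 (limma adjusted p = 0.0264). Other surface proteins called above were Ptger3, a prostaglandin E2 receptor (gap 0.97), Rell1, a TNF-receptor-family-like membrane protein (0.88), the protocadherin Pcdhb12 (0.60) and the adhesion molecule Nectin3 (0.25). Ptger3 reached its highest value, 8.05, in the omitted array labelled alpha 2.

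Among signalling and metabolic genes, Pde3a, a phosphodiesterase that breaks down cAMP, had a mean of 5.91 ± 0.23 (SD, n = 4) against 5.23 ± 0.32 in beta and 5.05 ± 0.13 in alpha arrays. Stk33, a serine/threonine kinase, read 5.51, 6.77, 5.45 and 5.63 against controls of 4.38 to 5.13. Array 3 was well above the other 3, and all 4 cleared the controls, with a mean 2.18-fold over the nearer one (limma adjusted p = 0.0465). Slc4a10, a sodium-coupled bicarbonate transporter, had means of 8.26 ± 0.28 in Pdx1-deficient, 7.78 ± 0.66 in beta and 5.90 ± 0.35 in alpha arrays, so that its call reflects the distance from alpha and its gap of 0.48 from beta was within the beta spread. Pam, the enzyme that amidates peptide hormones in granules, read 11.04, 11.11, 10.87 and 10.94 against 10.58 to 10.89 in beta and 10.31 to 10.46 in alpha arrays. It overlapped beta slightly and had a gap of 0.26 (limma adjusted p = 0.0374), with the array labelled Pdx1-deficient 1 lowest at 10.01.

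Of the transcription regulators, Mlxipl encodes ChREBP, the glucose-responsive factor of glycolytic and lipogenic genes. It read 8.73, 8.97, 9.30 and 9.33 in the Pdx1-deficient arrays, 8.53 to 8.91 in beta and 7.38 to 7.95 in alpha arrays 1, 3, 4 and 5. The lowest Pdx1-deficient array overlapped beta, and the gap was 0.42 (limma adjusted p = 0.0133). Runx1t1, a corepressor, had a mean of 8.50 ± 0.18 against 7.95 ± 0.12 in alpha and 7.46 ± 0.25 in beta arrays, with no overlap and a gap of 0.54 (limma adjusted p = 0.014). Sertad4, of the SERTA-domain family, was called with a gap of 0.40, again with no overlap. The histone gene H2bc4 was called above with a gap of only 0.01, since its mean of 10.35 was next to that of beta (10.34) and lay well over alpha (8.82).

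The remaining genes above had mixed roles. Snord61, a small nucleolar RNA that guides ribosomal RNA methylation, read 7.14, 7.00, 7.49 and 8.05 in Pdx1-deficient arrays against 4.35 to 6.38 in beta and 4.79 to 5.99 in alpha arrays. The groups did not overlap and the mean was 3.68-fold over the nearer control mean (limma adjusted p = 0.0299), with the omitted arrays at 6.09 (Pdx1-deficient 1) and 7.04 (alpha 2). It lies within a host gene, and this cluster cannot separate its RNA from the host's transcript. Dync1i1, a dynein intermediate chain, had a gap of 0.93, and Usp35, a deubiquitinase, 0.53. Usp35 read 6.75, 6.47, 6.61 and 6.71 against 5.67 to 6.19 in the 9 controls, and both omitted arrays read with the controls (5.87 and 5.82). Fhl1, a LIM-domain protein (gap 0.39), Tmcc3, an endoplasmic reticulum membrane protein (0.37), and Pphln1, periphilin (0.43), were also called without overlap.

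The 30 genes called below both controls in the 13 arrays included enzymes of small-molecule metabolism, proteins of the secretory pathway and genes of protein synthesis. Bpnt1, which clears the sulphation by-product 3′-phosphoadenosine 5′-phosphate, read 8.62, 8.90, 7.96 and 7.88 in the Pdx1-deficient arrays. It read 9.45 to 9.92 in beta arrays and 9.36 to 9.57 in alpha arrays 1, 3, 4 and 5. Every Pdx1-deficient array in the fit lay under every control, and the mean was 2.18-fold below the nearer control mean (gap -1.13, contrast -1.24, SE 0.17, limma adjusted p = 0.0106). The array labelled Pdx1-deficient 1 read 10.09, the highest of all 15.

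Nudt11, a hydrolase of inositol pyrophosphates, had the widest gap below, -1.20. It read 6.24, 6.38, 5.66 and 5.17 in Pdx1-deficient arrays against 6.31 to 7.92 in beta and 8.49 to 8.99 in alpha arrays, overlapping the lowest beta array (limma adjusted p = 0.0106). Cdo1, the cysteine dioxygenase that starts taurine synthesis, read 6.77, 6.84, 6.99 and 6.06 against 7.30 to 7.70 in beta and 8.40 to 9.11 in alpha arrays. It did not overlap either control, its gap was -0.87 (limma adjusted p = 0.00495), and the omitted Pdx1-deficient 1 at 7.40 fell within beta. Ephx4, an epoxide hydrolase relative, read 5.28, 5.18, 4.89 and 4.80 against 5.62 to 6.32 in the controls, again with no overlap (limma adjusted p = 0.00623).

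Slc41a2, a magnesium transporter, had the lowest adjusted p of all genes (limma, 0.000215). It read 5.99, 6.11, 5.89 and 5.80 in Pdx1-deficient arrays, 6.13 to 6.80 in beta and 8.13 to 8.41 in alpha arrays 1, 3, 4 and 5. Alpha cells were thus well over both other groups, and the gap from beta was -0.67, with the highest Pdx1-deficient array just under the lowest beta array. The omitted alpha 2 read 5.88, among the Pdx1-deficient arrays and more than 2 units under its own group. Gpx3, a secreted glutathione peroxidase, had a like order with means of 8.24 ± 0.53 in Pdx1-deficient, 8.98 ± 0.64 in beta arrays and values of 10.96 to 11.08 in alpha arrays 1, 3, 4 and 5 (gap -0.75, overlapping beta). Oat, ornithine aminotransferase and a gene usually kept low in beta cells, had means of 5.32 ± 0.20, 5.70 ± 0.23 and 7.50 ± 0.49 in the same order. Pcyt1a, the rate-limiting enzyme of phosphatidylcholine synthesis, did not overlap either control, with a gap of -0.71 (limma adjusted p = 0.0264).

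Secretory genes below both controls included receptors, cargo and membrane-fusion proteins. Glp1r, the receptor for the incretin GLP-1, read 8.26, 8.13, 6.95 and 7.51 in Pdx1-deficient arrays against 9.69 to 10.05 in beta and 8.07 to 8.70 in alpha arrays. Arrays 4 and 5 were under every control while arrays 2 and 3 overlapped alpha, and the gap from alpha was -0.76 (limma adjusted p = 0.0117). Pdx1-deficient 1 read 10.13, just over the beta range. Vamp8, a SNARE of secretory and endosomal vesicles, read 10.09, 9.71, 9.86 and 9.68 against 10.17 to 11.29 in the 9 controls, with no overlap and a gap of -0.57 (limma adjusted p = 0.0348). Rcn1 and Rcn3, calcium-binding proteins of the endoplasmic reticulum, had gaps of -0.57 and -0.48, both without overlap.

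Fam3c, already without overlap in all 15 arrays, had a gap of -1.02 in the 13 (limma adjusted p = 0.0415). App, the amyloid precursor protein, read 8.84, 9.25, 8.80 and 8.90 against 9.15 to 9.84 in the controls, with array 3 overlapping beta, and its omitted Pdx1-deficient array was as low, at 8.79. The secreted proteins Nell1 (gap -0.83) and Matn2 (gap -0.37) and the phosphatase inhibitor Ppp1r1a (gap -0.51) had their higher control level in beta cells and lay under alpha. Ppp1r1a is known as a beta-cell transcript, and its mean was 7.88 ± 0.49 in Pdx1-deficient, 8.39 ± 0.49 in alpha and 10.02 ± 0.25 in beta arrays, so its gap from alpha was close to the spread within either group. The other genes called below were Vat1l, a relative of a synaptic vesicle membrane protein (gap -0.86), Utp15, a factor of ribosomal RNA processing (-0.78), Naa38, a subunit of an N-terminal acetyltransferase (-0.60), and Ing2, a chromatin reader (-0.58). All but Ing2 were without overlap.

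**Figure D3:**
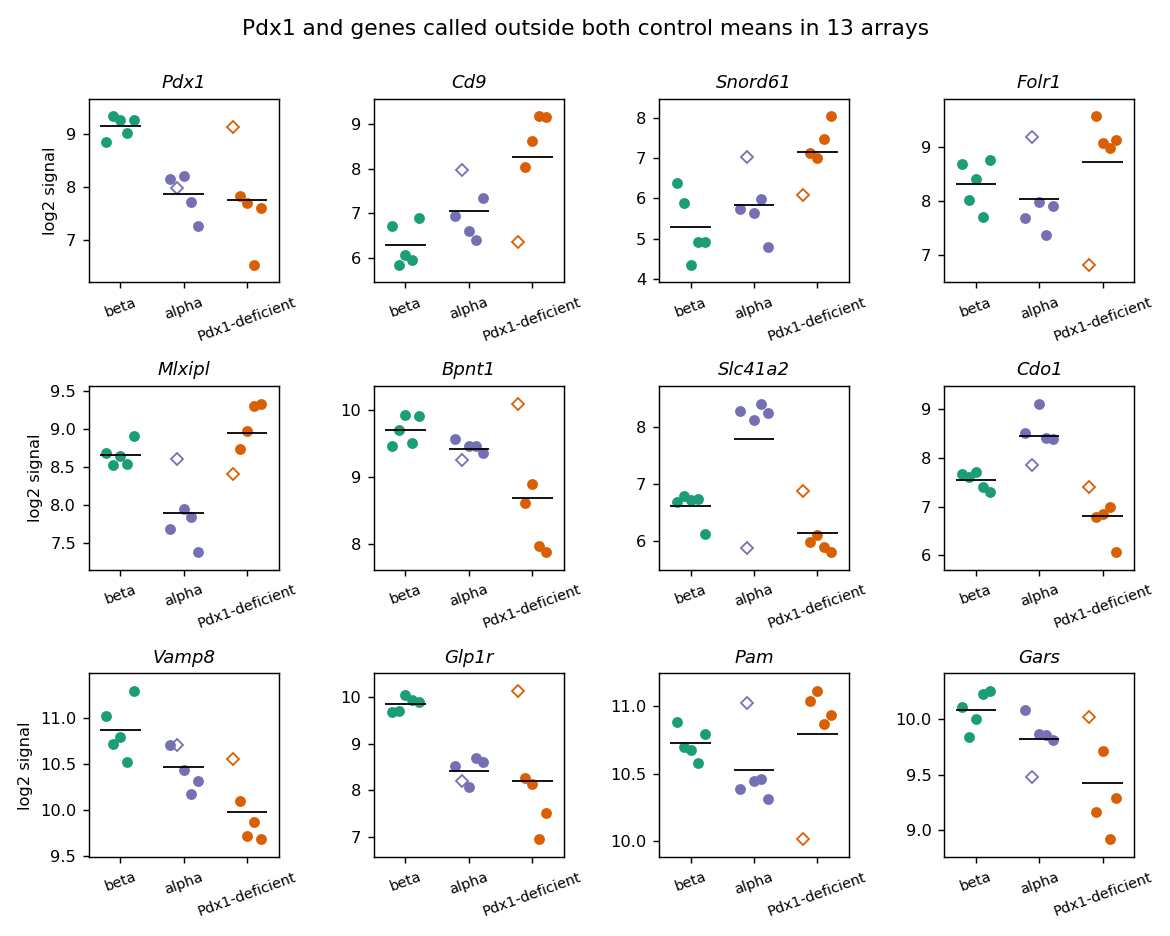
Log2 signal of Pdx1 and 11 of the 52 called genes in all 15 arrays, with lines at the means of 5 arrays and open diamonds for the arrays labelled alpha 2 and Pdx1-deficient 1. In Cd9 the 4 other Pdx1-deficient arrays lay between 8.03 and 9.17 and the omitted one at 6.37, and in Bpnt1 they lay between 7.88 and 8.90 and the omitted one at 10.09.

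Some called genes differed from the midpoint only because 1 control differed greatly from the other. Peg10, Ptprk, Sgce and Tspan12, of which Peg10 and Sgce are imprinted neighbours, were high in alpha arrays (13-array means of 9.97, 9.33, 8.31 and 8.73) and low in beta arrays (6.43, 6.61, 5.85 and 6.52). Their Pdx1-deficient means were 6.22, 6.48, 5.81 and 6.44, which were -0.21, -0.13, -0.04 and -0.07 from beta, with an unadjusted p against the nearer control of 0.462 to 0.783 in the limma fit. A further 10 genes passed the adjusted p of 0.05 with a Pdx1-deficient mean between the controls. Of these, 8 (Dpp10, Epb41l2, Galnt13, Higd1a, Mctp2, Ppp2r2b, Tfpi and Ugt8a) lay within 0.34 of the beta mean and far under alpha. Higd1a, a hypoxia-induced mitochondrial protein, had means of 5.27 in Pdx1-deficient, 5.18 in beta and 9.25 in alpha arrays. Atg4a, a protease of autophagosome formation, and Atp1b2, a sodium pump subunit, also sat at the beta level and were well over alpha.

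Genes that charge transfer RNAs with amino acids for translation in the cytosol were repeatedly among those below, and this group was put together after the values were seen. Its counts are a description and support no statement about the group as a whole. Gars, Nars, Mars1 and Cars, the synthetases for glycine, asparagine, methionine and cysteine, were called below in the 13 arrays. Gars read 9.17, 9.72, 8.92 and 9.29 in the Pdx1-deficient arrays, against 9.84 to 10.25 in beta and 9.81 to 10.08 in alpha arrays 1, 3, 4 and 5. Every Pdx1-deficient array lay under every control of the fit, with a gap of -0.63 (limma adjusted p = 0.0374), while Pdx1-deficient 1 read 10.02 and alpha 2 read 9.48.

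Nars read 9.95, 9.75, 9.48 and 9.48 against 10.50 to 10.80 in beta and 9.87 to 10.34 in alpha arrays (gap -0.44, limma adjusted p = 0.0152). The highest Pdx1-deficient array overlapped the lowest alpha array. Mars1 (gap -0.39, limma adjusted p = 0.0252) and Cars (gap -0.21, limma adjusted p = 0.0264) lay closer to alpha, and in Cars the unadjusted p against alpha was 0.142. Of the 18 synthetase genes measured, 15 had Pdx1-deficient means below both controls and 0 above, where 21.9% and 38.7% of all genes did. Among the brighter genes, counted over all 15 arrays, 33.1% were below and 24.7% above. The median contrast of the 18 was -0.60 against 0.04 over all genes. It was larger against beta (median -0.90) than against alpha (median -0.26), with the alpha mean itself under the beta mean in all 18. Sars and Tars had contrasts of -0.92 and -0.72 without passing adjustment (limma adjusted p = 0.0848 and 0.099), and Rars, Wars and Yars lay between the controls. With all 15 arrays 13 of 18 were below both controls with a median of -0.49 and 0 calls, and over the 13 arrays 0 were called without Pdx1-deficient 4 or without Pdx1-deficient 5.

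**Figure D4:**
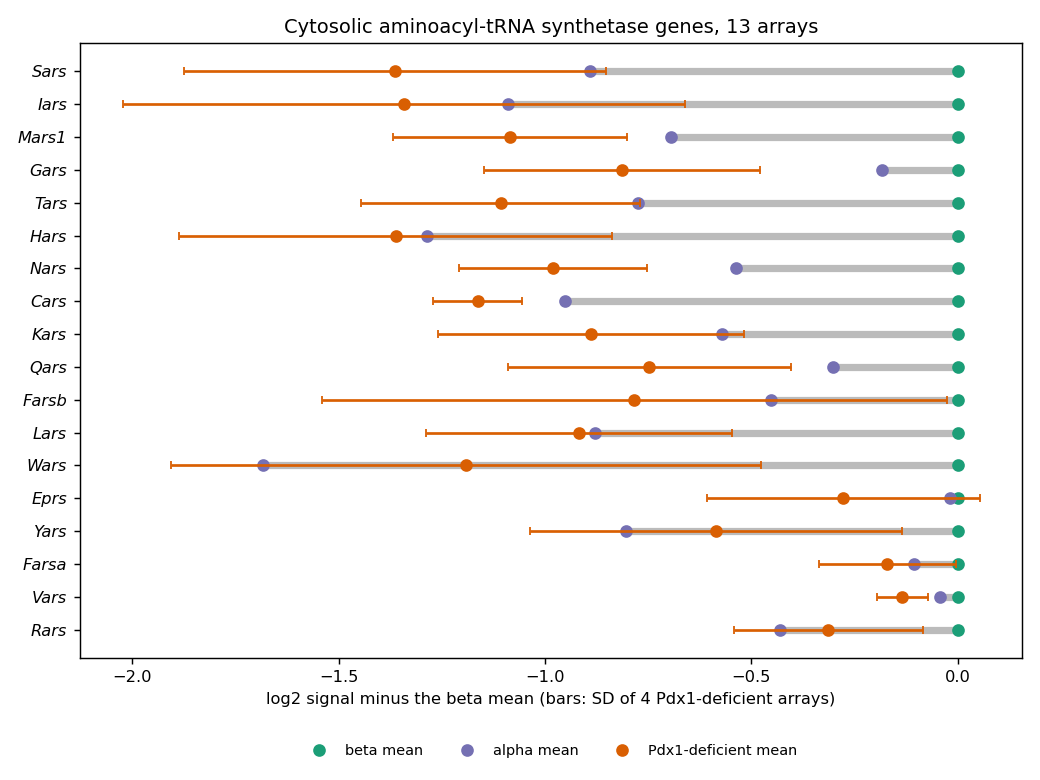
Mean log2 signal of the 18 measured synthetase genes over 13 arrays, relative to the beta mean at 0, with alpha and Pdx1-deficient means and bars for the SD of 4 Pdx1-deficient arrays. In 15 of the 18 the Pdx1-deficient mean lay left of both controls, and in several the bar reached the alpha mean.

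Several of these enzymes are known targets of ATF4, the transcription factor of the amino acid response, which binds composite elements in promoters. Among 19 measured genes of that response, also listed after the values were seen, 14 (73.7%) had means below both controls and 2 above. The shares of all genes and of the brighter genes are those given for the synthetases. None of the 19 was called, and their median contrast was -0.47. The median difference was -0.74 from beta and -0.19 from alpha. By array, the mean of the list was 7.01 to 7.27 in Pdx1-deficient 2 to 5, overlapping alpha arrays 1, 3, 4 and 5 (7.18 to 7.47). With all 15 arrays 13 of the 19 were below both controls, with a median contrast of -0.34. Asns, asparagine synthetase, had means of 8.98 in Pdx1-deficient, 9.28 in alpha and 10.39 in beta arrays (limma adjusted p = 0.0657). Chac1, which degrades glutathione, had means of 6.81, 7.33 and 8.20 in the same order (limma adjusted p = 0.106), and Atf4 itself 8.88, 9.21 and 9.64 (limma adjusted p = 0.151). Trib3 (6.16, 6.08 and 6.15) and Phgdh (7.04, 7.07 and 6.98) had nearly the same mean in the 3 groups.

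Promoter windows of RefSeq (GRCm38.p6), 250 bases before to 50 after a gene's start, were searched on both strands for TGATGNAA, the core of the element that ATF4 binds with C/EBP partners. At least 1 window held it in 4.51% of 27025 genes, in 4 of the 11 synthetase genes with a window (Gars, Iars, Tars and Yars), in 6 of 17 genes of the amino acid response and in 1 of 36 genes called over 13 arrays. A match is letters only, and binding was not measured. Both lists hold known ATF4 targets, so their shares follow from how the lists were made and are no evidence on these samples. The genes shown next all hold a match, and matching genes with contrasts near 0 are not shown. The 250 bases before the start are shown for Gars, the synthetase called below without overlap, for Tars, and for Asns and Chac1 from the response list, with the match in capitals. The windows are chr6:55037751-55038000 (plus strand), chr15:11399659-11399908 (minus), chr6:7693210-7693459 (minus) and chr2:119350992-119351241 (plus), each written 5′ to 3′ along its gene.
Gars: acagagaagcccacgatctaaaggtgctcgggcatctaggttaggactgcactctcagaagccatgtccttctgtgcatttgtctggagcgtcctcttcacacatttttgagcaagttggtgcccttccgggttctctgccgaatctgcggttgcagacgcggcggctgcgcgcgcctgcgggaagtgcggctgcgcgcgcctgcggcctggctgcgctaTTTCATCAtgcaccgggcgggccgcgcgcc
Tars: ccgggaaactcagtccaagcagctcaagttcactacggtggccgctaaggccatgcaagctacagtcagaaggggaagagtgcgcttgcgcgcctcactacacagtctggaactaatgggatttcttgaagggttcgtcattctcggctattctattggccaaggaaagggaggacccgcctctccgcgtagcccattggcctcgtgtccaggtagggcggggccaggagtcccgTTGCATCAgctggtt
Asns: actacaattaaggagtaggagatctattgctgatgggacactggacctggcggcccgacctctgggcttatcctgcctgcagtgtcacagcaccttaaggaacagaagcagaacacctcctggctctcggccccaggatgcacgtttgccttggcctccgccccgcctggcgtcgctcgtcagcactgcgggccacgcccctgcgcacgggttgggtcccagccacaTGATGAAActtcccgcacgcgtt
Chac1: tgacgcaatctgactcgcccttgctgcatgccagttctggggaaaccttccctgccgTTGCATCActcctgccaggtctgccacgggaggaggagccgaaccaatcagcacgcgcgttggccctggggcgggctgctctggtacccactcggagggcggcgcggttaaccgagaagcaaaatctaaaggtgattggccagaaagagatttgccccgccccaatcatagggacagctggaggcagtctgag
In Gars, Tars and Asns the match starts 30, 15 and 23 bases before the start, and in Chac1 193 bases before it. The contrasts of the 4 genes over 13 arrays were -0.72, -0.72, -0.86 and -0.96. Of the other genes with a match, Nupr1 had -1.96, Iars -0.80, Vldlr -0.22, Yars -0.18, Slc7a11 -0.16 and Trib3 0.04. Nupr1 read 11.48 in alpha 5 but 6.97, 6.85 and 7.14 in alpha 1, 3 and 4. It read 7.06 to 8.15 in Pdx1-deficient 2 to 5, so its mean lay under the alpha mean through alpha 5. The 10 genes of both lists with a match had a median contrast of -0.72, and the 18 without one had a median of -0.55 and ran from -1.03 (Mthfd2) to 0.22 (Stc2), so the ranges overlapped widely.

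Across 26 further lists, of islet, secretory, metabolic and stress genes and of other cell types, 4 of 437 measured genes (0.915%) were called over the 13 arrays, where 0.261% of all genes were. They were Glp1r, Peg10 and Oat below and Pam above, and 0 were called over 15. Peg10 and Oat are among the called genes that did not differ from each control group at an unadjusted limma p under 0.05. Calls lay mostly among brighter genes: of the 9969 brighter genes 16 were called above and 27 below over the 13 arrays. Whether the share in the lists exceeds that of equally bright genes was not tested. Of 16 measured beta-cell identity genes, 8 had means below both controls, 4 above and 4 between, with a median contrast of -0.28. Of all genes 21.9% were below and 38.7% above, and of the brighter genes 33.1% and 24.7% over all 15 arrays. With all 15 arrays 5 of the 16 were below and the median was -0.07, and over the 13 it was -0.16 without Pdx1-deficient 3. Ucn3, the maturity peptide urocortin 3, read 9.34, 8.65, 7.92 and 7.44 in Pdx1-deficient arrays against 10.95 to 11.50 in beta and 8.06 to 9.39 in alpha arrays, overlapping alpha (limma adjusted p = 0.0571). Slc2a2, the glucose transporter GLUT2, had means of 7.40, 9.85 and 7.77 in Pdx1-deficient, beta and alpha arrays and was not called. Alpha-cell identity genes lay mostly between the controls, with 3 of 10 below and 0 above, and Etv1, Ttr and Peg10 were the 3. With all 15 arrays 1 of the 10 was below.

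In 5 lists of the secretory machinery, mitochondria, lysosomes and ribosome assembly the median contrast was under the 0.04 of all genes, with no call, while that of cholesterol synthesis was 0.07. Of 22 unfolded protein response genes 8 (36.4%) were below and 1 above, median contrast -0.42. Of 27 genes of translocation and glycosylation in the endoplasmic reticulum 11 (40.7%) were below and 0 above, median -0.37. These shares were near the 33.1% of the brighter genes that lay below over all 15 arrays, beside 21.9% of all genes. The medians of both lists came from the beta side, since the median difference from alpha was 0.02 in each. Xbp1, a transcription factor of the unfolded protein response, read 8.86, 8.96, 8.96 and 8.73 against 9.17 to 9.70 in beta and 8.96 to 9.28 in alpha arrays of the fit (limma adjusted p = 0.196). Sec61a1, the channel of the translocon, read 9.38, 9.81, 9.37 and 9.57 against 10.09 to 10.36 and 9.59 to 9.67 (limma adjusted p = 0.121). For translocation and glycosylation the count below was 3 of 27 without Pdx1-deficient 4, 19 without Pdx1-deficient 2 and 18 without Pdx1-deficient 3. For the unfolded protein response it was 13 of 22 without either Pdx1-deficient 2 or Pdx1-deficient 3. Oxidative phosphorylation had 11 of 19 genes (57.9%) below (median -0.25), the lysosome and autophagy list 11 of 21 (52.4%, median -0.20) and ribosome biogenesis 12 of 21 (57.1%, median -0.12). The first of these lists had median differences of -0.49 from beta and -0.06 from alpha. Those of the lysosome and autophagy list were -0.44 and -0.03, so both lists lay close to alpha. For ribosome biogenesis they were -0.16 and -0.15. Without Pdx1-deficient 5 the lysosome and autophagy count was 4 of 21 with a median of -0.09, and the median of oxidative phosphorylation was -0.16. The ribosome biogenesis median was -0.18 without beta 5 and -0.19 without alpha 1. After quantile normalization the medians were -0.22 for translocation and glycosylation, -0.14 for oxidative phosphorylation and -0.08 for lysosome and autophagy.

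In the oxidative stress list 8 of 17 genes (47.1%) were below and 1 above, beside 21.9% of all genes below. Its median difference was -0.26 from beta and 0.05 from alpha, so the list lay close to alpha. Of the brighter genes 33.1% were below over all 15 arrays. Gpx1, the main cellular glutathione peroxidase, read 8.45, 8.77, 7.33 and 7.70 against 9.26 to 10.07 in beta and 8.72 to 9.07 in alpha arrays, with array 3 overlapping alpha (limma adjusted p = 0.056). Nr4a1, an immediate early nuclear receptor, read 8.75, 8.39, 9.70 and 8.36 against 6.77 to 7.80 in beta and 7.56 to 8.52 in alpha arrays and overlapped alpha (limma adjusted p = 0.124). Hmgcs1, of cholesterol synthesis, read 8.95, 9.23, 8.70 and 9.07 against 8.20 to 8.99 and 7.02 to 8.48 (limma adjusted p = 0.127). B2m, the light chain of MHC class I, read 8.89, 7.98, 8.01 and 7.32 against 8.79 to 9.73 and 8.92 to 9.04, with 3 of the 4 arrays under every control (limma adjusted p = 0.106). None of these genes was called.

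Markers of other cell types gave 0 calls. The acinar list had 11 of 18 members below both controls and a median contrast of -0.79, and alpha 5 carried it: the mean level of that list was 11.39 in alpha 5 and 5.86 to 7.12 in the other 14 arrays. Without alpha 5 the list had 7 below, 3 above and a median of -0.08, and 26 genes in all were called outside both controls, 23 of them among the 52. Bpnt1, Cd9, Cdo1, Ephx4, Nudt11, Rcn3, Slc41a2 and 1700086L19Rik were called in all 13 fits that each left out 1 of the 13 arrays. Mean levels of the duct list lay between 7.27 and 7.86, of the endothelial list between 5.13 and 5.50, of the leukocyte list between 5.07 and 5.46, of the stromal list between 5.27 and 5.98 and of the Schwann list between 5.58 and 5.93, and in each the Pdx1-deficient arrays overlapped the controls. The part of such cells in the called genes was otherwise not tested.

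**Figure D5:**
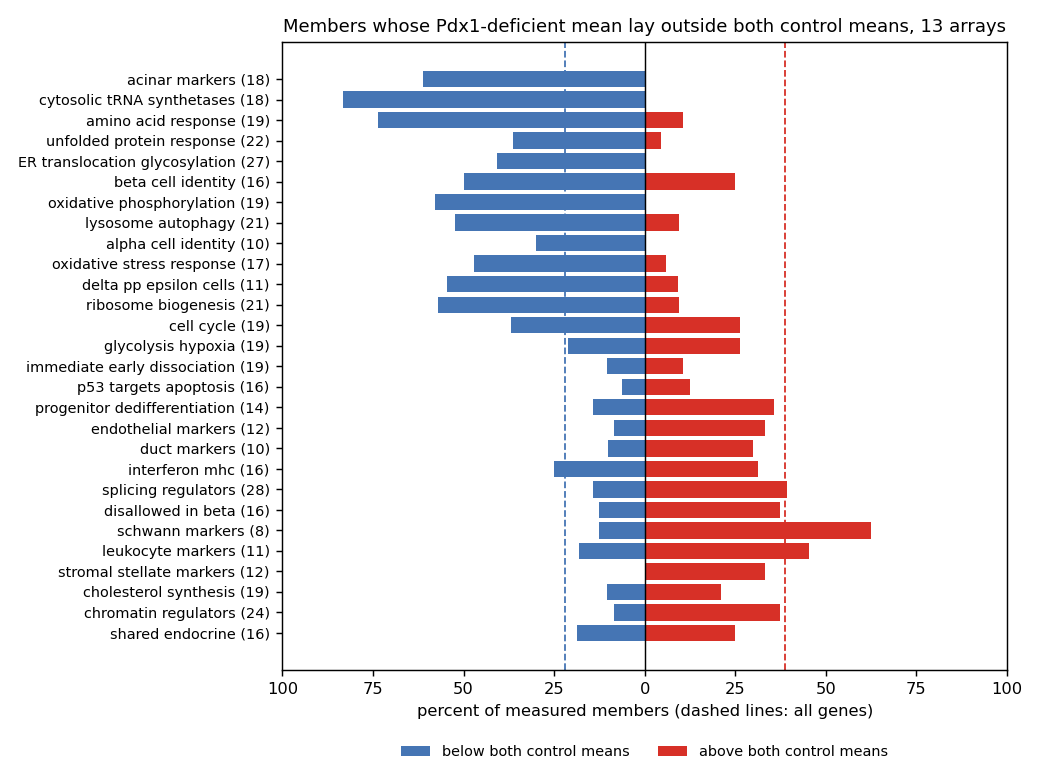
Percent of measured members of 28 gene lists whose Pdx1-deficient mean over 13 arrays lay below (left) or above (right) both control means, with the number measured in brackets and lists ordered by median contrast. Dashed lines mark all genes, 21.9% below and 38.7% above. Among the 9969 brighter genes these shares were 33.1% and 24.7% over all 15 arrays. The synthetase list, chosen after its values were seen, reached 83.3% below.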

How the data were processed

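The authors deposited 1 log-scale signal per transcript cluster and array (range 2.11 to 13.45, 0 missing), taken here as log2 from that range and made with Affymetrix Expression Console per the submitters' processing notes. How probes were summarized, the log base and which genome build applies are not stated there. Of 35556 clusters, 21789 had 1 gene symbol, 1621 several and 12146 none. Only the first kind was used, and of several clusters for a gene (999 genes) the one with the highest mean was kept, giving 19938 genes. Their names followed the platform annotation, checked against the RefSeq table (GRCm38.p6), which matched 21698 and changed 0.

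Group means were fitted with limma 3.58.1 in R 4.3.3 (lmFit and eBayes) over 15 or 13 arrays, with no block, and p-values were adjusted by Benjamini and Hochberg over 19938 genes at 0.05. The procedure was tested on simulated data in which alpha and beta had the same mean for every gene. That test therefore does not cover calls that come from a difference between the controls. The text names Pdx1, up to 12 genes a direction by their gap from the nearer control mean (called and without overlap first, then other called genes, then uncalled ones without overlap), and up to 4 called or 2 uncalled members of each list. Symbols starting with Gm or holding Rik were skipped, apart from 1700086L19Rik, named after its values were seen. Applying the rule to 13 arrays as well, describing other called genes and adding 2 of the 28 lists were decided after values were seen. Members, lists and the omitted arrays were all chosen with earlier results of these data known. Alternatives were leaving out each array, a replicate block, medians subtracted, quantile normalization, dim genes removed, moderation with a trend, array weights and single clusters.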

Additional observations from a re-analysis of the deposited data

Results flagged for a closer look

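In 41 of 327 gene and group combinations (109 genes named or called here, 3 groups of 5 arrays each), 1 array lay far from the other 4, with a gap over 0.71 of the group's range (Dixon's test, 95% level). Chance gives about 5% of groups, and here 12.5% were found. The array labelled alpha 2 accounted for 14 of the 41 and Pdx1-deficient 1 for 9, while each of the other 13 arrays had 0 to 3. The genes had been chosen partly for calls made without those 2 arrays, so this uneven share is no independent evidence on them. In each case the other 4 values of the group are given as a range of log2 signal.

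In the array labelled alpha 2, Kif4 read 3.63 against 3.86 to 3.95, Stk33 read 5.86 against 4.57 to 4.88, Tmcc3 read 7.34 against 5.99 to 6.32 and Slc41a2 read 5.88 against 8.13 to 8.41. There, Chd7 read 10.54 against 9.16 to 9.26, B2m read 8.31 against 8.92 to 9.04, Gpx3 read 9.48 against 10.96 to 11.08 and Nectin3 read 9.04 against 7.27 to 7.50. In the same array, Nudt11 read 6.48 against 8.49 to 8.99, Pam read 11.03 against 10.31 to 10.46, Ptprk read 6.20 against 9.05 to 9.54 and Sgce read 5.96 against 8.10 to 8.55. Finally for alpha 2, Slc4a10 read 8.66 against 5.44 to 6.22 and Tspan12 read 6.17 against 8.42 to 8.98.

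In the array labelled Pdx1-deficient 1, Kif4 read 4.30 against 4.04 to 4.10, Folr1 read 6.82 against 8.97 to 9.56, Sertad4 read 6.07 against 6.41 to 6.54 and Slc41a2 read 6.89 against 5.80 to 6.11. Again in Pdx1-deficient 1, Mki67 read 6.70 against 5.39 to 5.71, Cars read 7.76 against 6.84 to 7.08, Matn2 read 6.72 against 5.05 to 5.33 and Pam read 10.01 against 10.87 to 11.11. Last in this array, Rcn3 read 6.79 against 5.21 to 5.62.

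In Pdx1-deficient 3, App read 9.25 against 8.79 to 8.90. In Pdx1-deficient 4, Mtfr1l read 6.43 against 7.29 to 7.60, Abcc8 read 8.85 against 9.88 to 10.23 and Atp5b read 10.05 against 10.55 to 10.62. In Pdx1-deficient 5, Fam3c read 6.99 against 8.10 to 8.56. In alpha 1, Bub1 read 3.67 against 3.80 to 3.83 and Matn2 read 5.88 against 5.43 to 5.50. In alpha 3, Xbp1 read 9.28 against 8.96 to 8.99. In alpha 4, S100b read 4.75 against 5.00 to 5.02. In alpha 5, Tacc1 read 8.64 against 8.47 to 8.50 and Cela1 read 12.26 against 5.95 to 6.97. In beta 1, Peg10 read 6.79 against 6.24 to 6.39 and Ptprk read 7.18 against 6.36 to 6.56. In beta 2, Cpne9 read 5.17 against 5.25 to 5.25 and Usp18 read 7.15 against 7.44 to 7.53. In beta 3, Ldha read 5.34 against 5.86 to 6.06. In beta 4, Robo1 read 8.24 against 7.79 to 7.91. In beta 5, Slc41a2 read 6.13 against 6.69 to 6.80. Cela1, an acinar elastase, is part of the acinar list that was high in alpha 5.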

How the results depend on the processing

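Over 15 arrays the count of genes called against the control midpoint was 0, and it was 52 without the arrays labelled Pdx1-deficient 1 and alpha 2 together, 11 without Pdx1-deficient 1 and 1 without alpha 2. Over the 15 fits that each left out 1 array it ran from 0 to 11, and the count of called list members from 0 to 1, with 4 when both arrays were left out. The count was 0 with array medians subtracted, quantile normalization, dim genes removed, moderation with a trend, array weights and every cluster tested singly, and the count beyond both control groups was 0 throughout these. Over 13 arrays, where the alternatives were chosen after seeing the data, leaving out 1 further array gave 15 to 101 calls: 33 without beta 1, 31 without beta 4, 26 without alpha 5, 101 without Pdx1-deficient 3, 19 without Pdx1-deficient 4 and 15 without Pdx1-deficient 5. Other settings gave 47 (medians subtracted), 73 (quantile), 77 (dim genes removed), 56 (trend) and 56 (array weights). All 52 genes kept their direction where measured, and 10 (Bpnt1, Cd9, Cdo1, Ephx4, Nudt11, Ptprk, Rcn3, Sgce, Slc41a2 and 1700086L19Rik) passed the adjusted p of 0.05 in each of these 19 alternatives in which they were measured, on whichever side of the control means. Of the 10, Ptprk and Sgce were called outside both controls in 12 and 11 of the 13 fits that left out 1 array, and the other 8 in all 13. Gars passed in 6, Cars in 11, Mars1 in 14 and Nars in 17 of the 19. The 11 genes without overlap became 14 to 72 when 1 array was left out, 115 without both arrays and 6 with dim genes removed. The largest of the leave-one-out counts came without Pdx1-deficient 3 (72), Pdx1-deficient 1 (70) and Pdx1-deficient 2 (41). Pdx1 against beta ran from -1.74 to -1.09 with 1 array left out. Among 109 named genes under all alternatives, the contrast changed sign in 2, both near 0. Krt8 (0.10) ran from -0.0014 without Pdx1-deficient 3 to 0.209 without Pdx1-deficient 1. Sox9 (0.04) ran from -0.017 without Pdx1-deficient 4 to 0.0973 without Pdx1-deficient 3, and was -0.00063 without both arrays and -0.011 with array weights. The cause of these changes was not tested.

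Replicate numbers did not pair the samples: deviations of same-numbered arrays correlated at -0.17 to 0.22, 5 of 15 pairs exceeded 0.1, and 3 of 15 arrays correlated best with their own number. With the replicate number as a block the count was 0 over 15 arrays and 29 over 13 arrays, of which 20 were among the 52. The number of arrays and the low signal of dim genes limit these results.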
